A study of Homo sapiens with 23 samples.

Results

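Among 23 xenograft tumours of a human skin squamous carcinoma line, 8 had a transcriptome in which the genes of chromosome 20 lay above those of the other tumours, and these 8 are described here against 14 tumours in which they lay below. The members were chosen from the RNA values themselves. For each tumour, a chromosome 20 score was taken as the median, over the chromosome's genes with a mean normalized value of at least 10, of the deviation in log2(value + 1) from the gene's mean over all tumours, minus the same median over all autosomal genes. Tumours with a score above 0.05 are called high and those below it low. WT specimen 5533, a library of 2037751 estimated reads with a score of -0.12, was left out, so 22 of the 23 tumours enter the comparison. Every value on chromosome 20 given below was used in this choice and is a description without a test, whereas genes on other chromosomes entered the choice only through the common median.

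The cells were SCC-13, an established line of cutaneous squamous cell carcinoma, in a knockout (KO) or wild-type (WT) version of hFWE, the human Flower gene, whose symbol is CACFD1. All groups shared the same host and handling. Cells were injected subcutaneously into NCG mice, which lack functional T, B and NK cells but keep fibroblasts, vessels and myeloid cells, tumours were taken on day 26, and poly(A) libraries were made from 500 ng of RNA. The high group held 6 KO tumours (1 of line 2F7, 2 of 2B8 and 3 of 1G10) and 2 WT tumours (1 of 5B2 and 1 of 6C9). The low group held 5 KO tumours (2 of 2F7, 2 of 2B8 and 1 of 1G10) and 9 WT tumours (3 of 5B2, 2 of 6C9 and 4 of 6C10). High tumours thus made up 6 of 11 KO and 2 of 11 WT tumours, and genotype was kept as a term in the comparison. The labels name the lines by code only, and say neither how they were derived nor whether each tumour grew in a separate mouse. The spread that p-values measure is therefore that between these samples and may in part be technical.

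As background, carcinoma lines often carry gains and losses of whole chromosomes, and subclones of a line can differ in them. Genes on a gained chromosome tend to be transcribed in proportion to their copies, with exceptions, and can change the expression of genes elsewhere. The long arm of chromosome 20 is often gained in carcinomas and carries the mitotic kinase AURKA, the survival gene BCL2L1 and the tyrosine kinase SRC. DNA was not analysed here, so a score is a level of RNA and not a number of copies.

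The scores of the 8 high tumours ran from 0.20 to 0.37 with a median of 0.33, and those of the 14 low tumours from -0.19 to -0.14 with a median of -0.17. The high tumour nearest the threshold was KO 2F7 5540 with 0.20 and the low tumour nearest it was WT 5B2 5526 with -0.14, so no tumour lay near 0.05. The short arm gave 0.25 to 0.37 in high and -0.23 to -0.14 in low tumours, and the long arm 0.17 to 0.37 in high and -0.21 to -0.12 in low tumours, and each arm alone put every tumour in the same class. In 5 of the 6 lines both classes occurred, and the exception was WT line 6C10, whose 4 tumours were all low. Over the 22 tumours the SD of the chromosome 20 score was 0.24, against at most 0.057 for any other autosome or X.

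**Figure D1:**
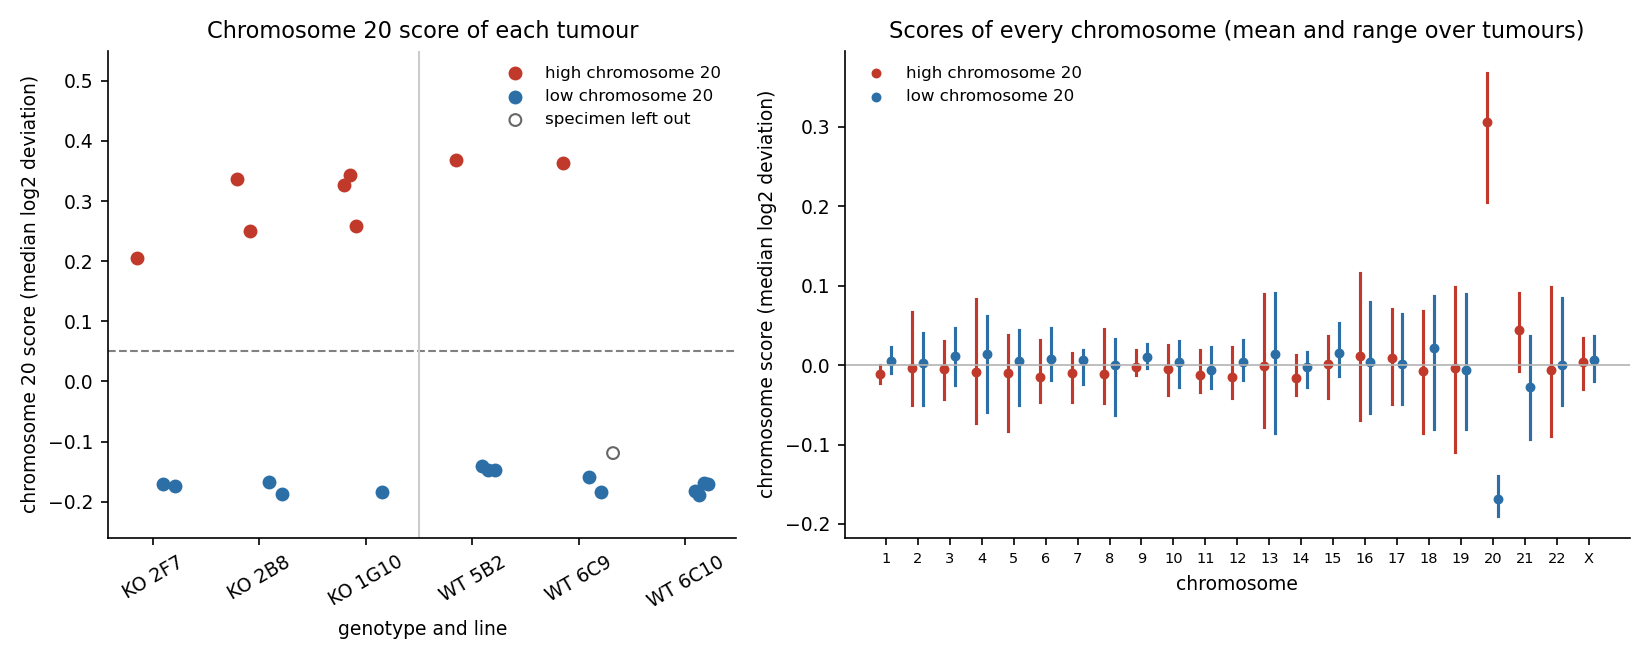
The left panel plots the chromosome 20 score of each tumour by genotype and line, with high tumours left of low ones, the threshold dashed and the specimen left out as an open circle; high tumours lie at 0.20 or more and low tumours at -0.14 or less. The right panel plots, for each chromosome, the mean score (point) and range (line) of the 8 high and 14 low tumours, which are apart on chromosome 20 and overlap on every other chromosome.

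Depth was similar in both classes, with 13224302 to 17855208 estimated reads in high and 7011069 to 22093213 in low tumours. The libraries that stood apart from the rest were KO 1G10 5549 (high) and WT 6C9 5532 (low, the shallowest), with median correlations to the other libraries of 0.945 and 0.943 where the remaining 20 had at least 0.960. Mitochondrially encoded transcripts took 1.44 to 3.38% of the signal in high tumours (median 2.10%) and 1.39 to 3.50% in low tumours (median 1.71%). Keratinocyte markers were present throughout, with 12 of 12 tested and a median difference of 0.24, and KRT14 and KRT5, the paired keratins of basal cells, had the highest means of all genes tested. CACFD1 RNA was present in all tumours, at 167, 277 and 369.5 in KO and 286, 370.4 and 432 in WT tumours (lowest, median and highest of 11 each), and whether those transcripts were edited cannot be read from gene values. Between the classes, CACFD1 differed by -0.20 on the log2 scale (SE 0.12, limma adjusted p = 0.446).

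Chromosome 20 genes lay higher in high tumours along the whole chromosome and in each list of genes examined. Of 669 chromosome 20 genes in the table, 415 passed the minimum mean, 136 on the short and 279 on the long arm. The median log2 difference, high minus low, was 0.50 with quartiles of 0.35 and 0.62, against -0.015 for the 15648 genes elsewhere with quartiles of -0.13 and 0.094. The ratio of the class means had a median of 1.41 on chromosome 20 and 0.989 elsewhere. A positive difference was found for 378 of 415 genes, and 301 lay between 0.25 and 0.75. In 102 genes, 24.6%, every high tumour lay above every low tumour, and in 0 genes (0%) below. Since these genes chose the tumours, nothing is read from these counts.

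The difference varied little along the chromosome and more with level and gene type. In consecutive windows of 25 genes the median ran from 0.38, in the window from ZNFX1 to ERP29P1 (chromosome 20, 49237946 to 52111049, hg38), to 0.58 in the next window, from TSHZ2 to GNAS (52972358 to 58911192). The short arm had a median of 0.52 and the long arm of 0.49. By mean level, the 104 lowest genes had a median of 0.35 with 74 positive, and the 104 highest a median of 0.56 with all 104 positive. Protein-coding genes had a median of 0.52 (334 of 349 positive) and long noncoding RNAs 0.50 (33 of 35). The 25 processed pseudogenes, copies of spliced RNAs whose parent genes mostly lie elsewhere, had a median of -0.062 with 8 positive.

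Lists of chromosome 20 genes follow, for which the shares over the whole chromosome were 91.1% positive and 24.6% without overlap. These genes chose the tumours, so the counts describe the lists and nothing is read from them. Signalling genes of chromosome 20 had a median difference of 0.59, with 24 of 25 tested members positive and 12 without overlap between the classes. GNAS, which encodes the stimulatory G protein alpha subunit, had 12191, 14681 and 16424 in high tumours (lowest, median and highest normalized value, as in all such triples below), against 8208, 9159 and 11212 in low tumours. The classes did not overlap. YWHAB, a 14-3-3 adaptor protein, had 6539, 7004 and 7587 in high tumours, against 4236, 4771 and 5144 in low tumours, and CSNK2A1, a catalytic subunit of casein kinase 2, had 1685, 1861 and 1949 against 1139, 1264 and 1465, both again without overlap. SRC had 1254, 1925 and 2359 in high tumours, against 869, 1096 and 1320 in low tumours, and the Notch ligand JAG1 had 3690, 4911 and 7148 against 1729, 2909 and 4166. For these 2 genes the lowest high tumours lay within the range of the low ones. The differences were 0.64 for GNAS, 0.58 for YWHAB, 0.54 for CSNK2A1, 0.78 for SRC and 0.73 for JAG1.

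Survival and stress genes had a median difference of 0.52 with 11 of 11 positive and 5 without overlap. BCL2L1, the anti-apoptotic Bcl-xL, had 1110, 1463 and 1807 in high tumours, against 878, 1139 and 1442 in low tumours, with overlap. SRXN1, which reduces overoxidised peroxiredoxins, had 944, 1010 and 1141 in high tumours, against 538, 645 and 760.4 in low tumours, without overlap and with a difference of 0.70. AHCY, the S-adenosylhomocysteine hydrolase, had 1891, 2287 and 2556 in high tumours, against 1240, 1408 and 1752 in low tumours, also without overlap.

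Mitosis and replication genes of chromosome 20 were positive in 26 of 26, with a median of 0.45 and 8 without overlap. TOP1, the type I DNA topoisomerase, had 2199, 2508 and 2715 in high tumours, against 1484, 1750 and 2038 in low tumours, without overlap. AURKA had 140.2, 173 and 529 in high tumours, against 63.6, 140.2 and 180.2 in low tumours, and its highest value, 529, was that of KO 1G10 5549, the tumour with the highest score on the cell cycle list described below. CSE1L, a nuclear export factor, had 1634, 1746 and 2866 in high tumours, against 1072, 1423 and 1545 in low tumours, with the same tumour highest and no overlap between the classes. Without that tumour the list median was 0.35. Transcription and chromatin regulators had a median of 0.45 with 22 of 24 positive and 5 without overlap. CEBPB, a transcription factor of keratinocyte differentiation, had 1583, 4045 and 4639 in high tumours, against 2357, 4048 and 5549 in low tumours, and its difference was 0.023.

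Housekeeping and protein synthesis genes were positive in 41 of 41 (median 0.54), with 18 without overlap. EIF2S2, the beta subunit of the initiation factor that brings the initiator tRNA to the ribosome, had 1205, 1335 and 1533 in high tumours, against 774, 939 and 1044 in low tumours. DSTN, the actin-depolymerizing factor destrin, had 6306, 6752 and 8752 in high tumours, against 3322, 4618 and 5187 in low tumours. The classes did not overlap for either gene. RPS21, a protein of the small ribosomal subunit, had 2594, 5109 and 6358 in high tumours, against 1614, 3872 and 8306 in low tumours, with wide overlap. Lipid and vitamin metabolism genes had a median of 0.59, with 13 of 14 positive and 1 without overlap.

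Adhesion, matrix and cytoskeleton genes had a median of 0.39, with 15 of 16 positive and 3 without overlap. FERMT1, the integrin activator kindlin-1 of keratinocytes, had 2450, 3165 and 3930 in high tumours, against 1327, 1753 and 2284 in low tumours, without overlap. SULF2, an extracellular sulfatase of heparan sulfate, had 6976, 9950 and 12805 in high tumours, against 4088, 5424 and 8201 in low tumours. Protease inhibitors and transglutaminases, which include the WFDC cluster of epithelial antiproteases, had a median of 0.49, with 8 of 9 positive and 1 without overlap. SLPI, an inhibitor of neutrophil elastase, had 1967, 6102 and 6844 in high tumours, against 2099, 2851 and 4041 in low tumours, and its lowest value was again that of KO 1G10 5549. PI3 (elafin), the chromosome 20 gene with the highest mean, had 3152, 16134 and 24249 in high tumours, against 4962, 16371 and 24741 in low tumours, and its difference of 0.28 lay below the chromosome's lower quartile. WFDC12 had 14.8, 42.5 and 122 in high tumours, against 27.7, 120.3 and 169 in low tumours, with a negative difference of -0.77.

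Among protein-coding genes with a mean of at least 50, the largest differences were those of FNDC11 (1.31), SMOX (1.245) and FLRT3 (1.09). SMOX, spermine oxidase, had 193, 385 and 469 in high tumours, against 110.4, 172 and 233 in low tumours, and FLRT3, a cell-surface adhesion and guidance protein, had 359, 515 and 604 against 185, 227 and 314. Of 307 such genes, 4 had a difference of 0 or below. The lowest was TNNC2, troponin C of fast skeletal muscle, with 0, 5.07 and 28.1 in high tumours, against 0, 35.4 and 397 in low tumours. It was followed by WFDC12, SOX18 (-0.28) and ZSWIM3 (-0.16). MYLK2 and JPH2, both genes of striated muscle, differed by -1.94 and -1.13. With the skeletal muscle marker score as a covariate, an alternative chosen after seeing the data, TNNC2 differed by -0.20, JPH2 by -0.13 and MYLK2 by 0.28.

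Outside chromosome 20, 507 of 15648 genes (3.24%) were called at a Benjamini-Hochberg adjusted p under 0.05 in limma, 285 higher (1.82%) and 222 lower (1.42%) in high tumours. Rescaling each tumour to its median autosomal gene gave 389 higher and 183 lower, so that 68.0% of calls were higher in place of 56.2%, and moved the median of all genes off chromosome 20 to 0.014. In 28 genes (0.179%) every high tumour lay above every low tumour and in 5 (0.032%) below. Of the genes called, 242 of the higher and 182 of the lower ones had that sign within each of the 5 lines that hold both classes. Among all 15648 genes, 728 were higher in sign within each of these lines. The matching number lower in sign is not given here, so the 182 stand without it. The calls were made on the same tumours, so this agreement is a description and not separate support. The count rests strongly on the 2 high WT tumours, with 257 calls without WT 5B2 5529 and 281 without WT 6C9 5531, and it was 645 without KO 1G10 5549. It was 162 when specimen 5533 was kept. The adjustment over all genes includes those of chromosome 20, which chose the tumours and of which 310 had an unadjusted p under 0.05. Adjusted over the genes off chromosome 20 alone, an alternative chosen after seeing the data, 370 were called, 220 higher and 150 lower, all among the 507, and ASAP3, CARD16, FKBP10, FLG, KRT1 and MYH2 below lost their calls. Among the 507, 7 of the higher genes averaged under 10 normalized units in low tumours and 21 of the lower ones in high tumours, so that they could pass the minimum mean only through the other class.

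Among protein-coding genes the largest statistic off chromosome 20 belonged to RTL8B (ENSG00000212747, chromosome X, 135020513 to 135022542, minus strand, hg38), a gene domesticated from a retrotransposon gag sequence. It had 94.5, 141 and 216 in high tumours, against 1.99, 6.92 and 35.0 in low tumours, a log2 difference of 3.92 (SE 0.35, limma adjusted p = 1.03e-07). All high tumours lay above all low ones, and the call held without any 1 tumour. Its near-identical neighbours were not called, RTL8A with 432, 524 and 637 in high and 470.3, 539 and 652 in low tumours (adjusted p = 0.827) and RTL8C with a difference of 0.097 (adjusted p = 0.565). The deposited counting could divide reads between such copies, so the level of RTL8B is uncertain.

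The next 9 protein-coding genes by statistic were ENDOU, SH3BGRL3, TC2N, GPR160, UBE2J1 and 4 genes of chromosome 21 described below. ENDOU, a uridylate-specific endoribonuclease, had 85.7, 128 and 173 in high tumours, against 21.4, 30.7 and 70.1 in low tumours, without overlap (difference 2.01, SE 0.19, limma adjusted p = 1.45e-07). SH3BGRL3, a small thioredoxin-like protein, had 5482, 6190 and 7156 in high tumours, against 3190, 3687 and 5214 in low tumours, without overlap (difference 0.77, adjusted p = 1.03e-07). The orphan receptor GPR160 had 69.1, 95.2 and 142 against 22.8, 35.8 and 53.4, also without overlap. TC2N, a protein with C2 domains, differed by 0.74 without overlap, and UBE2J1, an E2 enzyme of endoplasmic reticulum protein degradation, by 0.87 with overlap.

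The 10 protein-coding genes with the lowest statistics were of mixed function. METTL7A, a lipid-droplet methyltransferase, had 77.3, 128 and 168 in high tumours, against 215, 346 and 506 in low tumours, without overlap (difference -1.32, SE 0.17, limma adjusted p = 1.1e-05). SYT8, a synaptotagmin, had 24.7, 41.2 and 67.2 in high tumours, against 53.6, 119 and 167 in low tumours, and 1 high tumour lay within the low range. The zinc finger factor ZBTB7C had 7.02, 26.3 and 57.0 in high tumours, against 53.6, 121 and 209 in low tumours (difference -1.76), and NFE2L3, a cap'n'collar transcription factor, had 52.4, 70.8 and 129.9 against 114, 260.3 and 416 (difference -1.44). MAOA, which oxidises serotonin and other amines, had 105, 126 and 192 against 158, 219 and 309. SREBF1, the transcription factor of fatty acid synthesis genes, had 1180, 1291 and 1623 in high tumours, against 1524, 2026 and 2384 in low tumours (difference -0.50, adjusted p = 0.000259). PIK3R3, a regulatory subunit of PI3-kinase, differed by -0.69, SYDE2 by -0.87, ADTRP by -0.98 and the ferrireductase STEAP3 by -0.34. Each of these 10 genes was lower in high tumours within all 5 lines and kept its call without any 1 tumour. They were chosen by their statistic on the same tumours, so this too is a description. With specimen 5533 kept, the calls of NFE2L3, SREBF1 and STEAP3 were lost. The 5 genes with every high tumour below every low one were METTL7A, CRNN, IL20RB, FBXW2 and ENSG00000250644, the last 3 chosen for mention after their values were seen. CRNN averaged 1.06 normalized units in high tumours and passed the minimum mean only through the low ones, so nothing is read from its call or its lack of overlap.

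**Figure D2:**
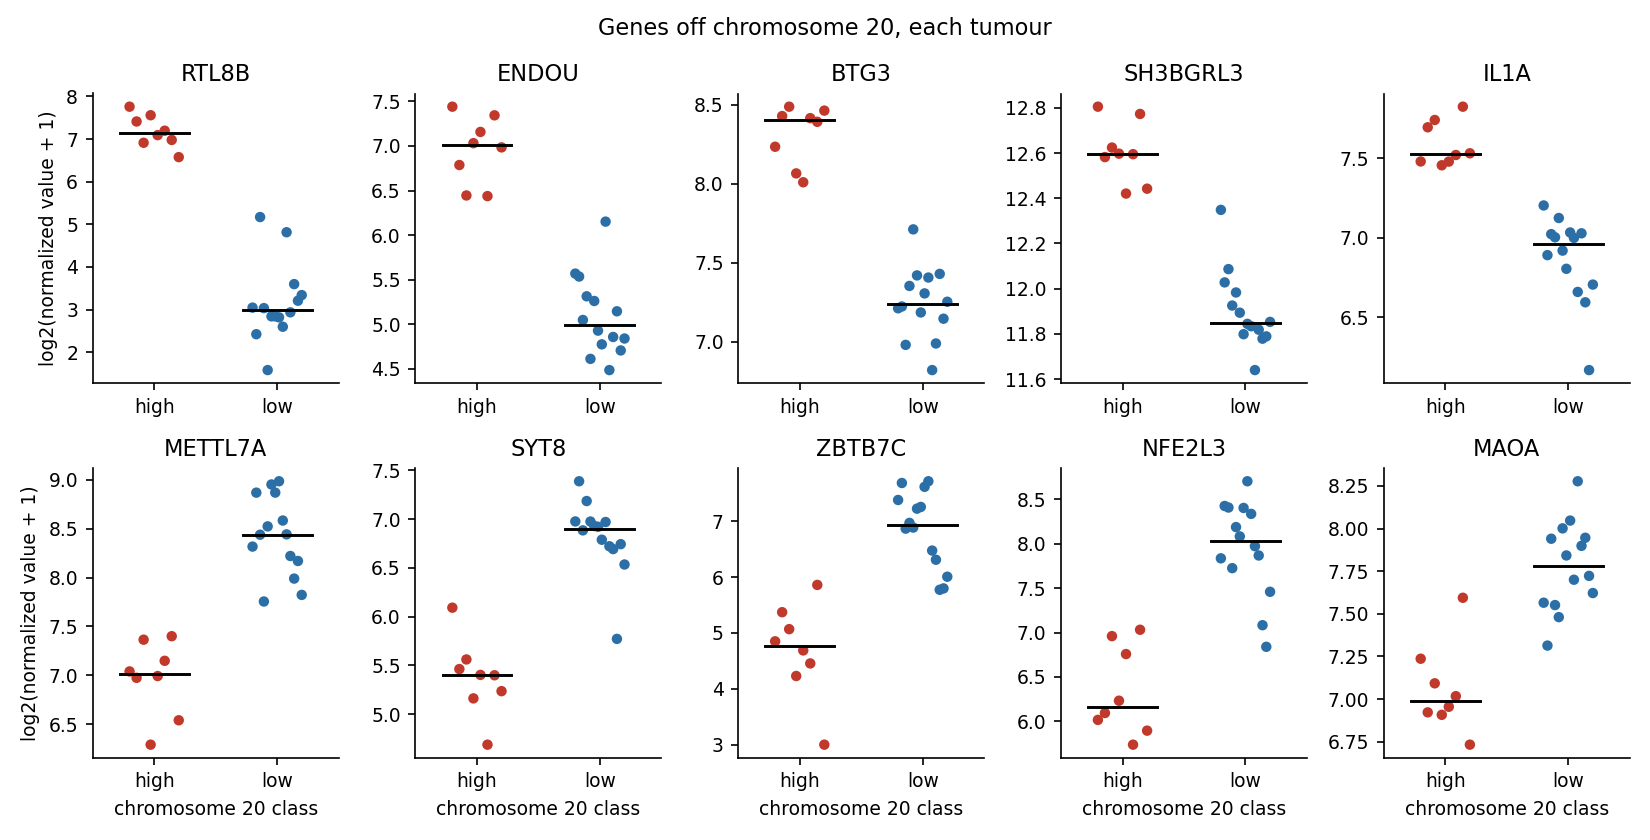
Each panel plots log2(normalized value + 1) of 1 gene in the 8 high (left) and 14 low (right) tumours, with the class median as a bar; axes differ between panels and do not start at 0. In the upper row all 5 genes lie higher in high tumours without overlap, and in the lower row METTL7A lies lower without overlap while the other 4 overlap in 1 or more tumours.

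The longest stretch of neighbouring genes called together lay on chromosome 21. Of its 179 tested genes 13 (7.26%) were higher and 2 lower in high tumours, LINC00649 and RIPK4, where 1.82% were higher over all genes off chromosome 20. This run of neighbouring tested genes called in 1 direction held 7 genes, from ENSG00000235609 to C21orf91 (chromosome 21, 14818843 to 17819386, hg38), and every other run off chromosome 20 held 3. The genes of the run are ENSG00000235609, NRIP1, USP25, CXADR, BTG3, BTG3-AS1 and C21orf91. NRIP1, a corepressor of nuclear receptors, had 1067, 1280 and 1567 in high tumours, against 408, 654 and 779.9 in low tumours (difference 1.04, SE 0.12, limma adjusted p = 4.51e-06). USP25, a deubiquitinase, had 572, 650.4 and 787 against 319, 371 and 458 (adjusted p = 1.76e-07), and BTG3, an antiproliferative BTG/TOB protein, had 257, 337 and 358 against 112, 150.01 and 209 (adjusted p = 1.03e-07). In these 3 genes, as in 5 of the 7, the classes did not overlap. CXADR, the tight junction protein that adenoviruses bind, overlapped, with 1239, 1883 and 2177 in high tumours, against 819, 1157 and 1352 in low tumours. BTG3-AS1 overlaps BTG3 on the other strand. The library kit marks strand, but no source used here gives whether the counting used it, so reads of this pair may not be told apart.

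The genes on either side of the run were not called. HSPA13, the tested gene before it, differed by 0.052 (adjusted p = 0.886) and PPIAP22, the one after it, by 0.032 (adjusted p = 0.936), against a median of 1.04 within the run. As the median log2 deviation over its genes, the run lay between 0.49 and 0.76 in high tumours and between -0.81 and -0.16 in low tumours. The next 60 genes had a median difference of -0.033, with 0 higher and 1 lower (LINC00649) in limma. Then came TTC3 (0.31), VPS26C (0.91) and DYRK1A (0.74), called together (37073226 to 37526358). VPS26C, a subunit of the retriever sorting complex, had 404, 485 and 515 in high tumours, against 183, 262 and 294 in low tumours, and the kinase DYRK1A had 542, 678 and 786 against 299, 394 and 465.7, both without overlap. PIGP before them differed by 0.088 and KCNJ15 after them by 0.19, neither called. The remaining 3 higher genes were CSTB (cystatin B), with 7536, 11716 and 12796 in high tumours, against 4730, 7065 and 9360 in low tumours, and the collagen VI genes COL6A1 and COL6A2. Within the 5 lines with both classes the median difference of the first run was 1.18 in KO 2F7, 0.86 in KO 2B8, 1.01 in KO 1G10, 1.07 in WT 5B2 and 1.08 in WT 6C9. On chromosome 20 these lines had 0.39, 0.49, 0.50, 0.55 and 0.54 in the same order. With specimen 5533 kept, the calls of NRIP1, DYRK1A, BTG3-AS1, TTC3 and COL6A1 were lost.

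**Figure D3:**
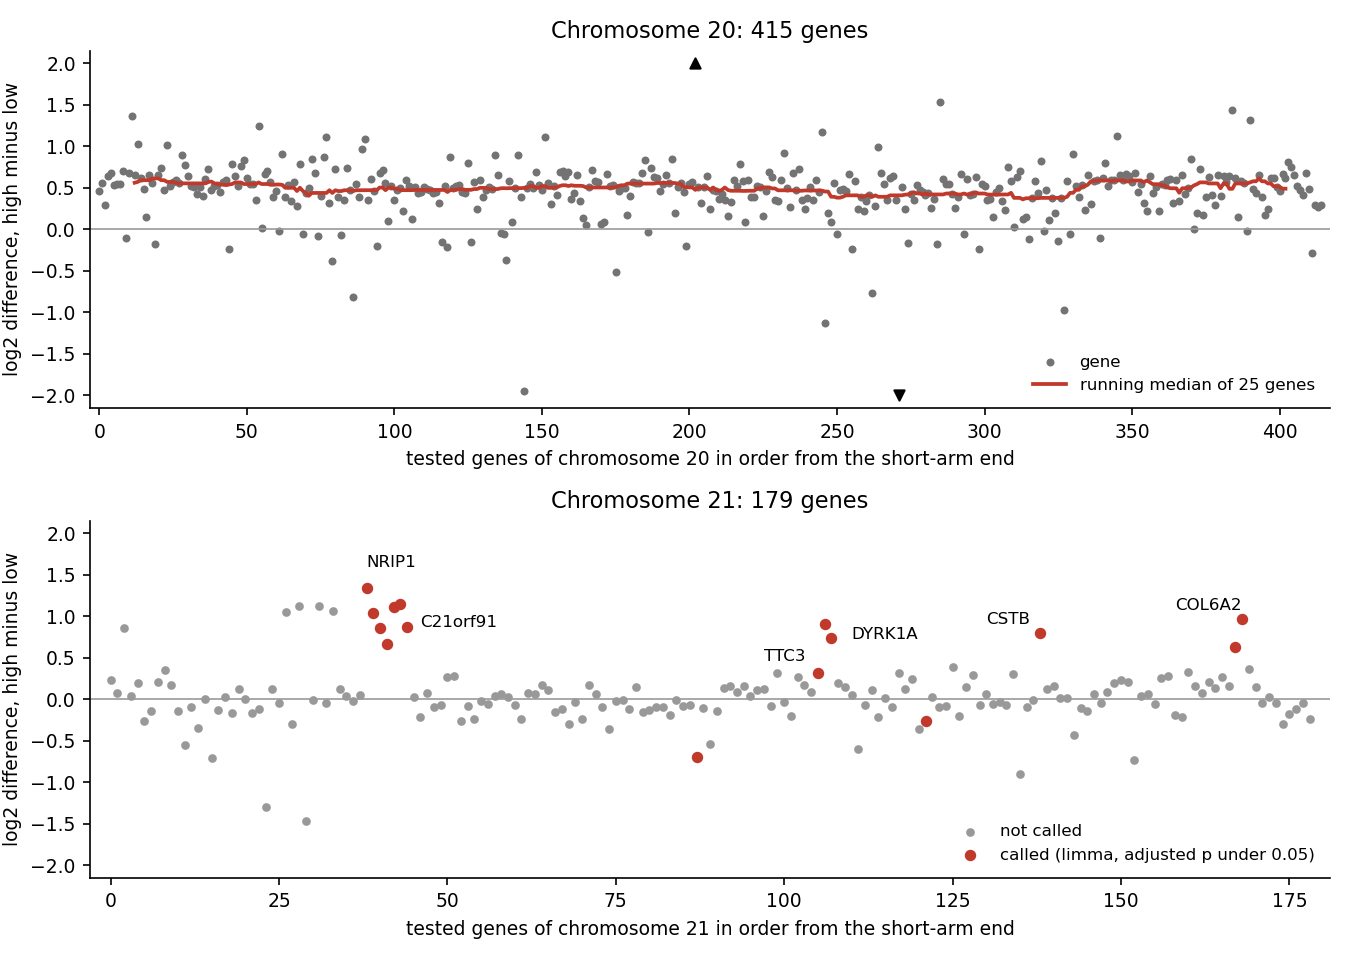
The log2 difference, high minus low, of each tested gene is plotted in gene order from the short-arm end, for 415 genes of chromosome 20 (with the running median of 25 genes as a red line) and 179 genes of chromosome 21 (called genes in red). Triangles mark genes beyond 2 in either direction; chromosome 20 stays near 0.5 throughout, and on chromosome 21 the genes called higher sit in 2 runs, at CSTB and at the collagen VI genes.

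As whole chromosomes, 2 of the 22 others (9.09%) had scores that differed between the classes in an exact permutation of the classes within each genotype over 25410 arrangements, two-sided and adjusted over the 22. Chromosome 21 had a mean score of 0.044 (range -0.0080 to 0.091) in high tumours, against -0.028 (-0.093 to 0.037) in low tumours, a genotype-adjusted difference of 0.060 (adjusted p = 0.0398). Chromosome 1 had -0.012 (-0.022 to -0.00011) in high tumours, against 0.0045 (-0.0094 to 0.023) in low tumours, a difference of -0.019 (adjusted p = 0.00346). Both are small beside the difference of 0.49 on chromosome 20, and the classes overlapped in both. The autosomal median subtracted from each score includes chromosome 20, whose higher genes lower the other scores of high tumours. Differences were positive on chromosomes 16, 17, 19, 21 and 22 and negative on all others. Chromosome 4 had -0.031 and was not called (adjusted p = 0.258), whereas chromosome 1 had the smallest SD, 0.011. The part of the subtracted median in the chromosome 1 difference was not tested. The count was 0 when all genes with a mean above 0 were used, and likewise with line as a fixed term.

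The other runs of 3 neighbouring genes were 3 higher and 3 lower. Adjusted over the genes off chromosome 20 alone, FKBP10, ASAP3, FLG and CARD16 lost their calls, and the runs that hold them were no longer runs of 3. Higher in high tumours were the matrix metalloproteinase genes MMP10, MMP1 and MMP3 on chromosome 11, P3H4, FKBP10 and NT5C3B on chromosome 17, and ACAA1, MYD88 and OXSR1 on chromosome 3. MMP1, the interstitial collagenase, had 13625, 16335 and 20815 in high tumours, against 5265, 9483 and 20274 in low tumours (difference 0.81, SE 0.18, limma adjusted p = 0.00772). MYD88, the adaptor of Toll-like and IL-1 receptors, had 846, 1023 and 1227 against 706, 802 and 895 (difference 0.38, adjusted p = 0.000857). Lower were TCEA3, ASAP3 and E2F2 on chromosome 1, the epidermal genes FLG, FLG2 and CRNN on chromosome 1, and the inflammasome genes CASP1, CARD16 and CARD18 on chromosome 11. CASP1, the protease that matures IL-1 beta, had 156, 172 and 209.5 in high tumours, against 191, 219.8 and 263 in low tumours (difference -0.35, adjusted p = 0.00404), and its relative CARD18 had 0, 15.8 and 92.4 against 19.3, 244 and 499 (difference -2.88, adjusted p = 0.0156). The calls of MMP3 and CARD18 were lost without WT 5B2 5529 (adjusted p = 0.0635 and 0.0718) or WT 6C9 5531 (0.106 and 0.0860). Those of CARD16, MMP10 and P3H4 were each lost without any of 6 tumours, that of ASAP3 without any of 7 and that of FKBP10 without any of 8. With the fibroblast score as a covariate, whose markers were positive in 17 of 17, the calls of MMP1, MMP10 and MMP3 were lost (adjusted p = 0.208, 0.3997 and 0.312), and likewise those of P3H4, FKBP10, TCEA3, ASAP3, E2F2, FLG, FLG2, CARD16 and CARD18. With the skeletal muscle score, chosen after seeing the data, the calls of CASP1, CARD16, CARD18, OXSR1, MMP3, P3H4 and FKBP10 were lost. So were those of TCEA3, ASAP3, E2F2, FLG and FLG2. CASP1 also lost its call without line 2B8. The part of the fibroblast and muscle markers in the runs was not tested. With specimen 5533 kept the calls of MMP10, P3H4, FKBP10, ACAA1, MYD88, OXSR1, ASAP3, FLG and CARD16 were lost. FKBP10 averaged under 10 normalized units in low tumours, and TCEA3 and CRNN under 10 in high tumours. They passed the minimum mean only through the other class, so nothing is read from their calls or from their part in a run. CASP1, CARD16 and CARD18 derive from related sequences, so reads could be divided between CASP1 and CARD16.

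Processed pseudogenes on other chromosomes whose parent genes lie on chromosome 20 were higher in sign in high tumours. Of 14 such pseudogenes, matched to tested parents by symbol, 14 had a positive difference, with a median of 0.50 and a range of 0.16 to 0.98. Of 888 pseudogenes with a parent elsewhere 364 were positive, with a median of -0.038. Called higher in limma were 4 of the 14 and 0 of the 888 (1.82% over all genes off chromosome 20). EIF2S2P4 on chromosome 2 had 679, 759 and 873 in high tumours, against 454, 518 and 586 in low tumours (difference 0.56, SE 0.061, adjusted p = 1.33e-06), without overlap. Its parent EIF2S2 differed by 0.57. UBE2V1P2 on chromosome 3 had 174, 201 and 215 against 105, 124 and 153, a difference of 0.67 where its parent UBE2V1 had 0.75. TOP1P1 and SIRPAP1 differed by 0.48 and 0.98, against 0.49 and 0.73 for TOP1 and SIRPA. The intronless protein-coding copies FKBP1C and CSNK2A3 were called too, with differences of 0.55 and 0.49 beside 0.65 and 0.54 for FKBP1A and CSNK2A1 on chromosome 20. With specimen 5533 kept, the calls of EIF2S2P4, UBE2V1P2, TOP1P1, FKBP1C and CSNK2A3 were lost.

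The 5 copies aligned here are close to their parents in sequence, and SIRPAP1 was not among them. Aligned with blastn to the best-matching GENCODE release 29 transcript of the parent, EIF2S2P4 was 97.1% identical over 1002 aligned bases with a longest identical stretch of 269, UBE2V1P2 98.6% over 441 with 136, TOP1P1 96.8% over 659 with 174, FKBP1C 95.8% over 1583 with 201 and CSNK2A3 99.0% over 1359 with 721. Reads that fall within such stretches could be divided between the copies in the deposited counting, so the levels of all 5 are uncertain. To show how little separates them, 90 coding bases of both parents and the aligned bases of their copies are printed here 5′ to 3′, with capitals at the positions that differ, 2 in each pair.
EIF2S2P4 (chromosome 2): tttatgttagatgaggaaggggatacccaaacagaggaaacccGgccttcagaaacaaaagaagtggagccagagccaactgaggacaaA
EIF2S2 (chromosome 20): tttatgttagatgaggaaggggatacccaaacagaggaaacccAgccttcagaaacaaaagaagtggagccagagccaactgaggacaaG
UBE2V1P2 (chromosome 3): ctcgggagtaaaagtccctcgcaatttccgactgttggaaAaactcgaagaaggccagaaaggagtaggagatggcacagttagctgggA
UBE2V1 (chromosome 20): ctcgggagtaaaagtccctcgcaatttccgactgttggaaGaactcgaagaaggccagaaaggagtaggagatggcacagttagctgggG

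**Figure D4:**
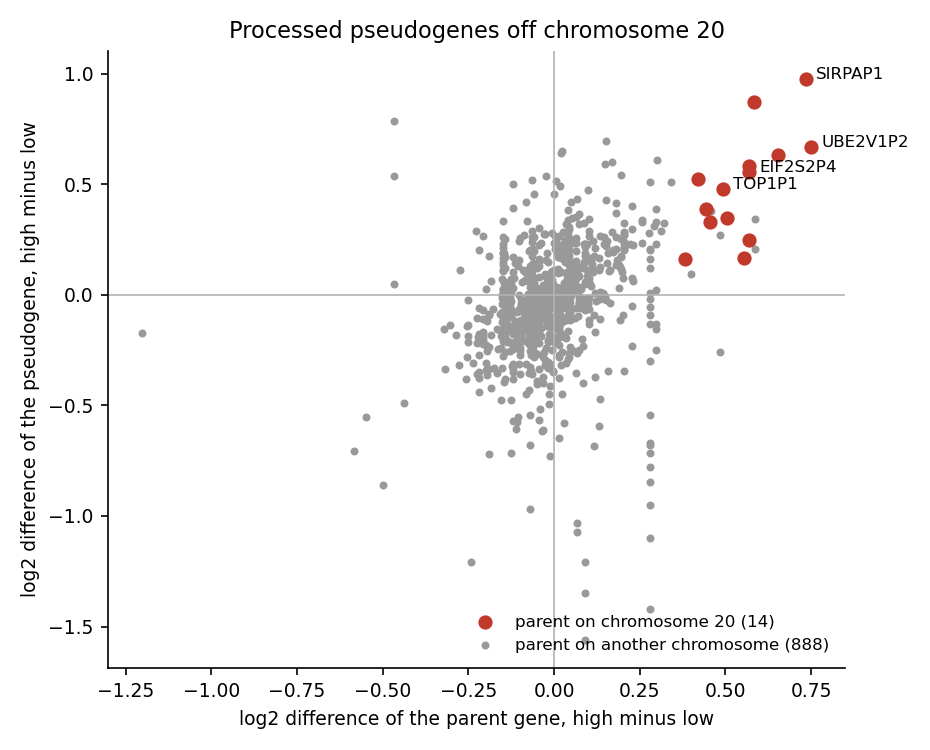
The log2 difference, high minus low, of each processed pseudogene off chromosome 20 is plotted against that of its parent gene, in red for the 14 with a parent on chromosome 20 and in grey for 888 with a parent elsewhere. All 14 red points lie above 0 on both axes, and the 4 named ones were called.

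Lists of keratinocyte differentiation genes held 1 to 8 calls each, where 1.82% of all genes off chromosome 20 were called higher and 1.42% lower. Nothing is read from a single call in a list, as in the basal one. Of the wound keratins and alarmins 4 of 23 were called higher and 1 lower, the serpin SERPINB4 at -1.46. That lower call was lost without WT 6C9 5531, and with the fibroblast or the skeletal muscle score as a covariate. The median difference of 0.11 varied with single tumours, from 0.051 without KO 2B8 5545 to 0.27 without WT 6C9 5531, and was 0.055 without KO 1G10 5548, 0.063 without KO 2F7 5540, 0.18 without KO 2F7 5538 and 0.25 without KO 1G10 5549. It was 0.45 with the fibroblast score as a covariate and 0.39 in KO tumours alone. KRT6B had 75939, 118323 and 136092 in high tumours, against 39076, 54174 and 94595 in low tumours (difference 1.07, SE 0.16, limma adjusted p = 9.65e-05), and KRT6C differed by 1.10 (adjusted p = 0.000177). These keratins of wounded and hyperproliferative epidermis share long stretches with KRT6A, which differed by 0.40 and was not called (adjusted p = 0.215), so the split between them is uncertain. IL1A, the alarmin interleukin-1 alpha, had 175, 183 and 226 in high tumours, against 70.8, 123 and 146 in low tumours (difference 0.82, adjusted p = 7.3e-06), without overlap. IL36RN, the IL-36 receptor antagonist, had 668, 1537 and 1850 against 607, 926 and 1194 (difference 0.79, adjusted p = 0.00118). Of 22 basal keratinocyte genes 1 was called, KRT17, with 133501, 158791 and 193503 in high tumours, against 70876, 88737 and 140415 in low tumours (difference 0.85, adjusted p = 0.000913), and the median was 0.16. KRT5 and KRT14 differed by 0.11 and 0.30, neither called.

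The cornified envelope list, proteins cross-linked under the membrane of dying keratinocytes, was divided, with 3 of 40 called higher and 5 lower (median -0.36). The 5 lower calls include that of CRNN, from which nothing is read. Higher were IVL and 2 small proline-rich proteins. IVL (involucrin), an early envelope protein, had 8315, 19127 and 21488 in high tumours, against 7249, 10330 and 13050 in low tumours (difference 0.83, SE 0.15, limma adjusted p = 0.000737), and SPRR2A and SPRR2D differed by 1.32 and 0.86. Without WT 6C9 5531 the calls of SPRR2A (0.0691) and SPRR2D (0.0850) were lost, and that of SPRR2D also without WT 5B2 5529 (0.0533). The SPRR2 genes are near-identical, so their division is uncertain. Lower were FLG, FLG2 and CRNN, fused S100-type proteins of the granular layer, and the late envelope proteins LCE1B and LCE1C, with differences of -1.93 and -2.29. Without WT 5B2 5529 or WT 6C9 5531 the calls of LCE1B and LCE1C were lost, and CRNN was the only lower call left. CRNN (cornulin) had 0, 0.925 and 2.11 in high tumours, against 2.21, 14.3 and 44.3 in low tumours, the gene whose call is not read for the reason given above. FLG2 had 57.7, 764 and 2537 against 785, 6448 and 10572 (difference -2.35, adjusted p = 0.0179), a call lost without WT 5B2 5529 (0.0747) or WT 6C9 5531 (0.0802). FLG (filaggrin) had 2719, 24328 and 50802 against 22421, 110872 and 147943 (adjusted p = 0.0416), and its call was lost in 15 of 22 fits that left out 1 tumour.

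Late keratins and spinous markers had a median difference of -0.47, with 0 of 21 called higher and 3 lower. KRT23 had 27.3, 427 and 795 in high tumours, against 497, 1935 and 3108 in low tumours (difference -1.95, SE 0.46, limma adjusted p = 0.0114). BLMH, the bleomycin hydrolase that degrades filaggrin peptides, had 584, 969 and 1476 against 892, 2372 and 4784 (difference -1.05, adjusted p = 0.00317). KRT1, the main type II keratin of suprabasal cells, differed by -1.42 (adjusted p = 0.0491), a call lost in 17 of 22 fits that left out 1 tumour. Epidermal proteases and inhibitors had a median of -0.69, with 1 of 18 called higher, SPINK6, and 3 lower. SPINK6 averaged under 10 normalized units in low tumours and passed the minimum mean only through the high ones, so nothing is read from its call. That call was lost without KO 2F7 5539 (adjusted p = 0.0656) or KO 2B8 5544 (0.0520). The 3 lower ones were the kallikreins KLK5 and KLK6 and the noncoding WFDC21P. KLK6 had 43.7, 465.8 and 1279 in high tumours, against 841, 3709 and 6611 in low tumours (difference -2.37, adjusted p = 0.00388), and KLK5, which starts the proteolytic cascade of desquamation, had 385, 1478 and 3978 against 1655, 6610 and 9620 (difference -1.46, adjusted p = 0.0199). The calls of KLK5 and WFDC21P were lost without WT 5B2 5529 (adjusted p = 0.0913 and 0.0718) or WT 6C9 5531 (0.105 and 0.124), and that of KRT23 without WT 5B2 5529 (0.0619).

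The medians of these 3 lists varied with single tumours, with genotype and with the fibroblast markers. KO 1G10 5549 had the lowest score of all 22 tumours on each of them. Without 1 tumour the median ran from -0.48 (KO 2B8 5545) to -0.16 (KO 1G10 5549) for the cornified envelope, where it was -0.21 without WT 6C9 5531. It ran from -0.59 (KO 2B8 5545) to -0.29 (KO 1G10 5549) for late keratins, and from -0.94 (KO 2B8 5544) to -0.46 (WT 6C9 5531) for epidermal proteases, where it was -0.49 without KO 1G10 5549. With the fibroblast score as a covariate the medians were 0.22, 0.14 and -0.045 in the same order, with 0 lower calls in each, and KLK5, KLK6, BLMH, FLG2 and KRT23 were no longer called. In KO tumours alone they were 0.025, -0.22 and -0.27, and in WT tumours alone, where 2 tumours are high, -0.89, -0.81 and -1.53. The part of the fibroblast markers in these differences was not tested.

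**Figure D5:**
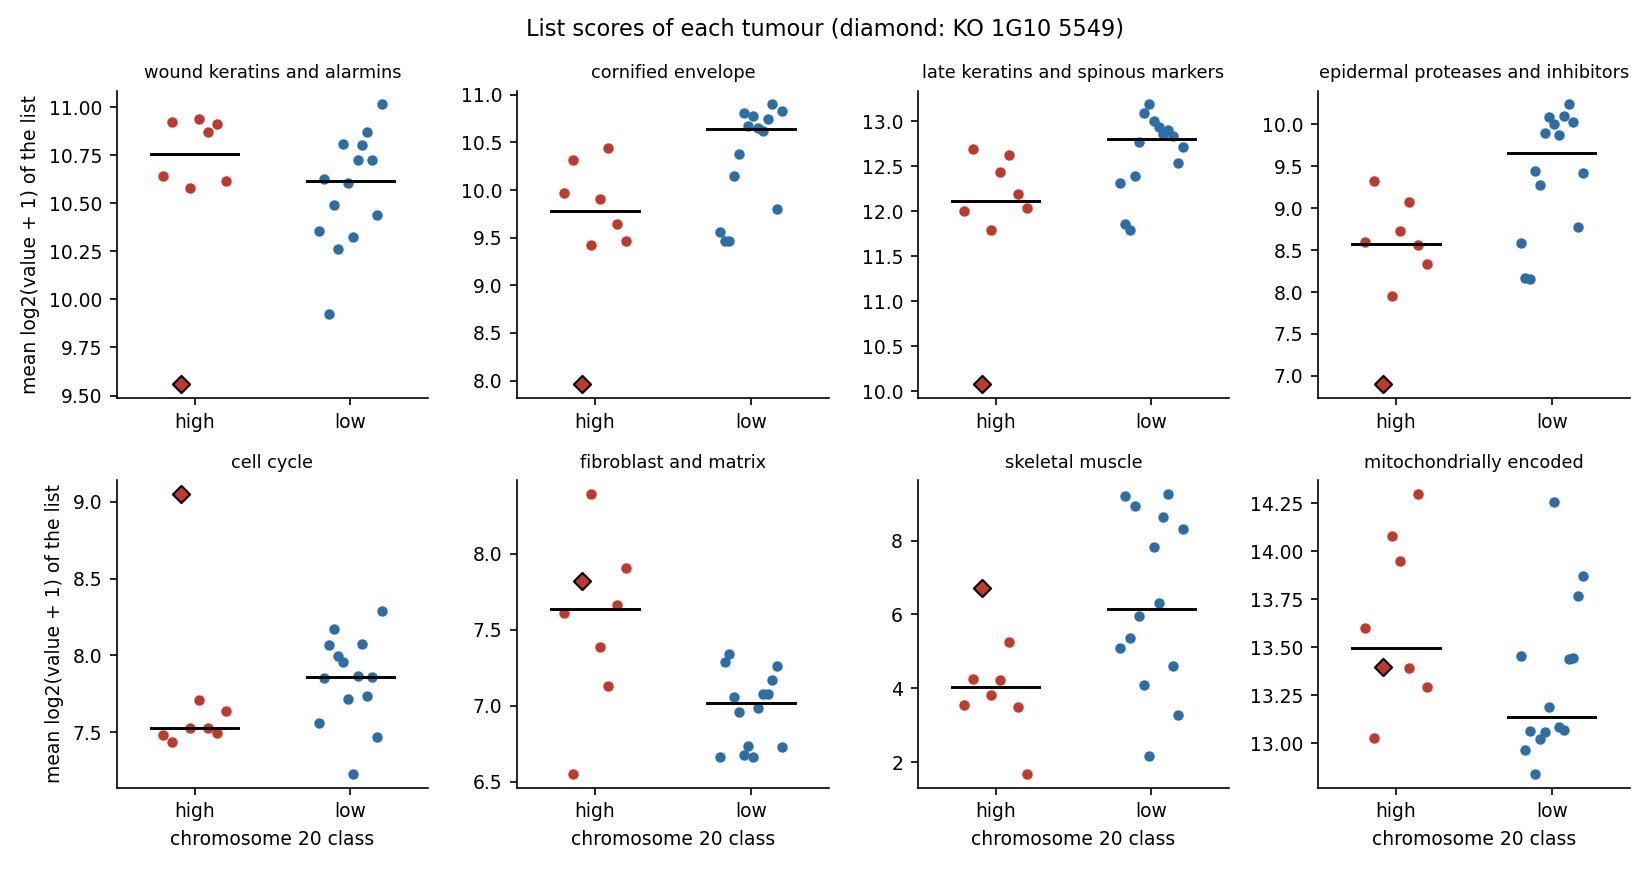
Each panel plots, for 1 gene list, the mean log2(value + 1) of its members in the 8 high (left) and 14 low (right) tumours, with class medians as bars; axes differ and do not start at 0. The tumour KO 1G10 5549, drawn as a diamond, is lowest on the 4 epidermal lists and highest on the cell cycle list, and the classes overlap in every panel.

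Growth and metabolic programmes off chromosome 20 held 0 to 2 calls each. The shares called over all genes off chromosome 20 were 1.82% higher and 1.42% lower, and nothing is read from a single call in a list. In the cell cycle list 0 of 41 genes were called by limma and 1 had an unadjusted p under 0.05, with a median of -0.19 and 37 genes negative. The score of KO 1G10 5549, 9.05, stood above the other 7 high tumours, which had 7.43 to 7.71, whereas low tumours had 7.23 to 8.29. Without that tumour the median was -0.33 and 9 genes were called lower. With all 22 tumours and the fibroblast score as a covariate it was -0.33 with 0 calls. With the skeletal muscle score, chosen after seeing the data, it was 0.024 with 0 calls. The interferon response had 0 of 43 called higher and 2 lower, SAMD9 (-0.51, a call lost without any of 5 tumours) and SAMD9L (-0.65), with a median of -0.11. That median was -0.041 without KO 2B8 5544, -0.060 without KO 2B8 5545 and -0.17 without KO 2F7 5539, and -0.36 with 7 called lower when the fibroblast score was a covariate. Cytosolic ribosomal proteins (76 genes, median -0.070), nuclear genes of oxidative phosphorylation (64, -0.056) and proteasome subunits (30, -0.0036) had 0 calls in limma, with 0 in each list at an unadjusted p under 0.05. Hypoxia and glycolysis had 1 of 30 called, BNIP3 (0.46), p53 targets 1 of 23, AEN (0.30, lost without WT 6C9 5531 with an adjusted p of 0.0548), and epithelial-mesenchymal transition 0 of 22, with 6 at an unadjusted p under 0.05.

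Among markers of other cells, calls were found in the fibroblast and skeletal muscle lists. Of all 15648 genes off chromosome 20, 1.82% were called higher and 1.42% lower, and 2303 had an unadjusted p under 0.05 in limma. In bulk tumours fewer cells of a type and less RNA per cell cannot be told apart. Of 17 tested fibroblast and matrix markers 17 were positive, with a median of 0.63, and 2 were called, COL6A1 (0.63) and COL6A2 (0.96), both of chromosome 21, that of COL6A1 lost without WT 5B2 5529 (adjusted p = 0.121) or WT 6C9 5531 (0.145). An unadjusted p under 0.05 was found for 8 of the 17. The summed value of the fibroblast and matrix markers ranged from 7170 to 35528 in high tumours and from 9011 to 15702 in low tumours. COL1A1 had 2510, 9348 and 18009 in high tumours, against 3584, 4344 and 7160 in low tumours (limma adjusted p = 0.0683). Skeletal muscle markers were negative in 14 of 14, with a median of -2.81 and 2 called lower, MYH2 (-3.79) and NEB (-2.91). An unadjusted p under 0.05 was found for 13 of the 14. The sum of the muscle markers ranged from 80.2 to 2943 in high and from 106 to 16445 in low tumours. The calls of MYH2 and NEB were both lost without WT 5B2 5529 (adjusted p = 0.0937 and 0.0845) among other tumours. Endothelial and myeloid markers (4 tested in each) had 0 calls and medians of -0.064 and -0.0047, with 0 in each at an unadjusted p under 0.05, adipocyte markers had 0 of 2 called and no erythroid marker passed the minimum mean. No marker in the table was at 0 in every tumour. Mitochondrially encoded genes had a median of 0.45 with 13 of 13 positive and 0 called by limma (10 at an unadjusted p under 0.05). Reads of mouse cells in conserved sequence could be assigned to human genes, and the part of these cells in the other results was not tested.

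The difference between high and low tumours was also compared between the genotypes. In limma 0 of 16063 genes (0%) had a genotype by class interaction at an adjusted p under 0.05, the lowest adjusted p being 0.327, and 1964 had an unadjusted p under 0.05. With library quality weights 12 were called. In KO tumours alone, 6 high and 5 low, 54 genes off chromosome 20 were called (40 higher and 14 lower), and in WT tumours alone, 2 high and 9 low, 584 (236 higher and 348 lower). On chromosome 20 the median difference was 0.48 in KO and 0.55 in WT tumours. RTL8B differed by 3.46 in KO tumours alone and by 4.65 in WT tumours alone, and BTG3 by 1.19 and 1.02, all 4 called.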

How the data were processed

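Poly(A) RNA of 23 xenograft tumours was sequenced with a directional kit, and reads were handled with STAR, DESeq2 and hg38, per the submitters' processing notes. The deposited signal values are read abundances per gene scaled by a size factor per tumour, as the values show, and are not whole multiples of 1 read for all genes, so no count test was run. Gene length and other annotation columns of the deposited table were used as given. The value of 1 read in each library was taken from the lowest value that many genes share and gave its estimated reads. Genes averaging 10 or more when all 23 tumours are counted (16063 of 27589) were taken as log2(value + 1) and fitted with limma 3.58.1 in R 4.3.3 (statmod 1.5.0), with class and genotype as terms, line as a random block (consensus correlation 0.025) and a trended prior variance, with Benjamini-Hochberg adjustment over all 16063 genes. Including the genes of chromosome 20 in that adjustment loosens the threshold for the others, so adjustment over the 15648 genes off it was added as an alternative. A fold change on this scale understates the change of low genes. Chromosome scores were compared by permuting the classes within genotype. For these 100000 draws were planned, and all 25410 arrangements were enumerated instead. In simulated data for high against low tumours with 16063 genes, 93 of 100 genes changed by 1.0 in log2 and 61 of 100 changed by 0.5 were recovered. The changed genes were protein-coding with a mean of at least 50, so the rates do not cover lower genes. The simulated noise was independent between genes and tumours, and no difference on chromosome 20 was simulated.

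Genes named are, on chromosome 20, the 10 with the highest mean, the 10 largest and 5 lowest differences among protein-coding genes with a mean of at least 50 and members of each list with the highest mean. Off it they are, among protein-coding genes with a symbol, the 10 with the largest statistic in each direction, the called members of each list with the smallest p, CACFD1, KRT5, KRT14 and the genes beside each run. RTL8A, RTL8C, KRT6A, CSTB, IL20RB, FBXW2 and some further members of lists and runs were added after their values were seen. The members and lists were chosen with earlier results of these data known. Some results are not reported here.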

Additional observations from a re-analysis of the deposited data

Results flagged for a closer look

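Among 195 values looked at within the 8 high tumours, 33 had 1 tumour whose gap to the nearest other exceeded Dixon's critical share of the range, 0.526. Chance flags about 1 in 20 such groups, and values of 1 tumour are not independent.

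KO 1G10 5549 was the tumour apart in 28 of the 33. As mean log2 values of a list, it stood above the other high tumours in cell cycle (9.05) and in the mitosis genes of chromosome 20 (9.64), and below them in late keratins (10.1), cornified envelope (7.96), wound keratins and alarmins (9.56), protease inhibitors of chromosome 20 (9.67) and p53 targets (8.51).

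As log2 levels of single genes, the same tumour was high in AURKA (9.05), CSE1L (11.5), MCM4 (11.4), MCM7 (10.3), SAMD9L (6.71) and TGFBI (13.8). It was low in CEBPB (10.6), CTSA (11.2), FAM210B (11.0), FLG (11.4), FNDC11 (6.06), IL20RB (10.6), IL36RN (9.39), IVL (13.0), KRT1 (11.0), KRT23 (4.82), OSBPL2 (9.83), PI3 (11.6), RTL8C (9.84), SLPI (10.9) and SMOX (7.60).

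Other tumours apart were KO 2F7 5540, low in transcription regulators of chromosome 20 (8.36), KO 1G10 5548, high in cholesterol synthesis (10.5) and ADTRP (7.04), WT 5B2 5529, low in C21orf91 (9.01), and WT 6C9 5531, low in RPS21 (11.3).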

How the results depend on the processing

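The 507 genes called off chromosome 20 became 310 with line as a fixed term, 162 with WT specimen 5533 kept (all 162 shared), 1009 with library quality weights, 292 with the fibroblast score as a covariate (177 shared), 218 with the skeletal muscle score, chosen after seeing the data (180 shared), 234, 326 and 261 without line 5B2, 6C9 or 6C10, 54 in KO tumours alone and 370 when adjusted over those genes alone. Leaving out 1 tumour gave 257 (without WT 5B2 5529) to 645 (without KO 1G10 5549). The median difference on chromosome 20 was 0.42 over genes with a mean above 0 and 0.55 in WT tumours alone, and 0.50 to 0.52 without 1 tumour. The 2 chromosome scores called became 1 with a pseudocount of 5, with 5533 kept and without line 5B2 or 6C10, and 0 with a mean above 0, with line as a fixed term, in KO tumours alone and in WT tumours alone, where 55 arrangements allow no unadjusted p below 0.0182. Without 1 tumour 1 to 3 were called. The interaction gave 12 genes with quality weights and 0 to 0 in the 20 fits without 1 tumour that were run. It was not run without WT 5B2 5529, WT 6C9 5531 or their lines, which leaves 1 high WT tumour, and could not be fitted within 1 genotype. Differences changed sign for LAMA5 (-0.038) and WFDC12 (0.25) with the fibroblast score, RPS21 (-0.22) in WT tumours alone and MYLK2 (0.28) with the skeletal muscle score. The cause of these changes was not tested. Of the values of named genes off chromosome 20 under the alternatives, 4744 kept their call or lack of one, 401 lost a call and 14 gained one. No paired analysis was possible because each specimen number occurs once, though the fit with line as a fixed term compares the classes within lines. The shallowest library used, with 7011069 estimated reads, limits the low genes most.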

Other observations

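Genes without overlap between the classes that lie outside the lists and runs were chosen for mention after their values were seen. LGI2, a secreted neuronal protein, averaged 56.3 ± 17.9 normalized units in high and 11.0 ± 6.81 in low tumours (SD, n = 8 and 14). PTPRD, a receptor tyrosine phosphatase, averaged 60.8 ± 21.3 in high and 19.6 ± 5.69 in low tumours. OSBP2, an oxysterol-binding protein, averaged 161 ± 36.4 in high and 72.9 ± 14.6 in low tumours, and CRYBA2, a crystallin, 46.9 ± 8.75 in high and 15.4 ± 8.27 in low tumours. PAM, which amidates peptide hormones, averaged 1479 ± 167 in high and 961 ± 138 in low tumours. ATF5, a stress-responsive transcription factor, differed by 0.39 and MAGED1 by 0.51 on the log2 scale. JAM3, a junctional adhesion molecule, did not overlap either but was not called (log2 difference 1.46, limma adjusted p = 0.0787).

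On chromosome 6, UBE2J1 (log2 difference 0.87) and ANKRD6 (1.60) were called higher in limma, whereas RRAGD between them (0.63, adjusted p = 0.218) and the following LYRM2 (0.045) and MDN1 (-0.45, adjusted p = 0.114) were not.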
